A study of Mus musculus with 8 samples.

Results

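The 9 genes described here, Pax6, Pax3, Sox1, Sox3, Sox11, Olig2, Neurod1, Gbx2 and Lmx1a, encode transcription factors of the developing nervous system. They were taken by name, not by any measured value, and each was matched by its mouse symbol to 1 Ensembl gene among the 47069 genes of the deposited tables. Their poly-A RNA was counted in mouse embryonic stem (ES) cells of strain C57BL/6, which renew themselves in culture and stand for the early embryo. The 4 groups were cells lacking Pcgf3 (Pcgf3KO), cells lacking Pcgf5 (Pcgf5KO), cells lacking both (DKO) and wild type cells (WT), with 2 libraries in each. The knockouts were made with Cas9, and the labels do not say which exon was targeted or how many clones were used. All 4 groups grew in serum with leukemia inhibitory factor on mouse embryonic fibroblasts stopped with mitomycin, so feeder RNA can be present in each library.

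Pcgf3 and Pcgf5 encode alternative RING finger subunits of the variant forms of Polycomb complex PRC1, an enzyme that attaches ubiquitin to a core histone and helps to keep genes silent. In ES cells many genes for developmental regulators, neural transcription factors among them, are known to be held at low levels by Polycomb complexes and to be switched on only as the cells form the neural plate. Pax6, Sox1 and Sox3 mark neural progenitors, Pax3 the dorsal neural tube and neural crest, Gbx2 the anterior hindbrain and Lmx1a the roof plate and midbrain dopaminergic progenitors. Olig2 marks motor neuron and oligodendrocyte progenitors, Neurod1 and Sox11 act in neurons that are starting to differentiate, and Gbx2 is also transcribed in ES cells themselves.

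The 7 complete libraries held 12652616 to 19923964 counts, and the table used here for WT replicate 1 stops after 8093 genes (17.2% of the list, 3459002 counts). That table lists Pax6, Sox3 and Lmx1a but none of the other 6 members, so for those 6 the WT level rests on WT replicate 2 alone, and no spread between WT libraries can be given. The 2 DKO libraries differed more from each other than those of any other group: the chi-square per gene between them was 19.97, against 1.94 to 7.04 in the other 3 groups. Over the genes tested, log2 levels in WT replicate 2 correlated at 0.987 to 0.989 with the single knockout libraries. Those correlated at 0.993 to 0.996 with each other, and the 2 DKO libraries at 0.989. With 1 complete WT library, an offset of that library and an effect of genotype cannot be told apart. Nothing in the labels says that libraries of 1 group came from separate cultures or clones, so the p-values below measure only the spread between these samples.

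Levels are given as raw counts where they are low, and otherwise as CPM, which are counts scaled to the effective library size. Folds are on the log2 scale with their standard error. The p-values are from edgeR's quasi-likelihood test on 7 libraries, adjusted by Benjamini-Hochberg over the 15669 genes tested, in a fit that assumes the 1 WT library to vary like the other groups, and a gene is said to have risen or fallen at an adjusted p of at most 0.05. The targeted genes were checked first. Pcgf3 had 66.1 and 60.5 CPM in Pcgf3KO, 92.3 and 94.1 CPM in Pcgf5KO, 86.6 and 67.2 CPM in DKO and 109.7 CPM in WT. Pcgf5 had 17.3 and 17.5 CPM in Pcgf3KO, 12.3 and 9.06 CPM in Pcgf5KO, 13.5 and 13.9 CPM in DKO and 20.7 CPM in WT. The cells lacking Pcgf3 had less of its RNA (log2 fold change against WT of -0.79, adjusted p = 0.0210), the cells lacking Pcgf5 had less Pcgf5 RNA (-0.94, adjusted p = 0.0292), and in DKO the changes of both missed the threshold (-0.51, adjusted p = 0.0899 for Pcgf3; -0.60, adjusted p = 0.114 for Pcgf5). Transcripts of an edited gene can persist, and reads outside the edited site do not check the edit.

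Polycomb complexes are known to gather at promoters rich in CG dinucleotides, so the DNA just upstream of the genes the results turn on is shown here, read 5′ to 3′ on the gene's strand with each CG in capitals. The sequences are from RefSeq on GRCm38.p6, the build also named mm10, and all lie upstream of the gene span in the deposited tables. Olig2 is shown at chr16:91225300-91225549 (plus strand), Neurod1 at chr2:79456752-79456886 (minus strand), Gbx2 at chr1:89931180-89931426 (minus strand), and the upstream one of 2 Pax6 starts at chr2:105668646-105668895 (plus strand).
Olig2: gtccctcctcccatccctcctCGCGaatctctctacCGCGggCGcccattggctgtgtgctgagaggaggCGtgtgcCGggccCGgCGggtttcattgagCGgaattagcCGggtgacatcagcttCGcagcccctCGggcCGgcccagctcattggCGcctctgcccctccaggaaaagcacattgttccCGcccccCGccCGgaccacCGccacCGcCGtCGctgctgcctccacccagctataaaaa
Neurod1: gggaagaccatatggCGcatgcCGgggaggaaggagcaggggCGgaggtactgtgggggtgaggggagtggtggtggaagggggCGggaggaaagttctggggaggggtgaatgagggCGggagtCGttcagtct
Gbx2: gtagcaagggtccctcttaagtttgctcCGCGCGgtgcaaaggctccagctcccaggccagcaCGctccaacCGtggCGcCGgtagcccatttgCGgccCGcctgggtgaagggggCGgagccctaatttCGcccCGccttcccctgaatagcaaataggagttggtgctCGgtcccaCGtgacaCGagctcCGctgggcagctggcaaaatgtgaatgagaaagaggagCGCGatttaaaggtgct
Pax6: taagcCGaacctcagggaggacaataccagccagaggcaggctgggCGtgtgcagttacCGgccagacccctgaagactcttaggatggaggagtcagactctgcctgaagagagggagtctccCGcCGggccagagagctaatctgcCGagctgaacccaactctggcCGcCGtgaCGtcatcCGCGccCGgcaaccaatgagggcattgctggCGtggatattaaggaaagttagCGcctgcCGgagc
The Olig2 stretch holds 22 CG in 250 bases, the Gbx2 stretch 18 in 247, the Pax6 stretch 15 in 250 and the Neurod1 stretch 6 in 135.

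Of the 9 genes, 7 had an entry in the RefSeq promoter table, and Pax3 and Sox3 did not. Over the 250 bases before each RefSeq start, the ratio of observed to expected CG was 0.821 for Olig2, 0.841 for Neurod1, 0.76 for Gbx2, 0.81 for Sox11 and 0.987 for Sox1. Pax6 had 0.652 at the upstream start and 1.06 at the other one, and Lmx1a had 0.437. Not all of these windows lie upstream of the gene span in the deposited tables. That of Neurod1 runs into the span and holds 22 CG, against 6 in the stretch printed above. That of Sox1 lies mostly in its span, and those of Lmx1a and the other Pax6 start lie wholly inside. The median over 32851 promoters was 0.373, and 34% of them reached 0.6, and so did 7 of the 8 windows of these genes, all but that of Lmx1a. Genes that fell in the knockouts and genes that did not pass the test both had CG-rich windows.

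**Figure D1:**
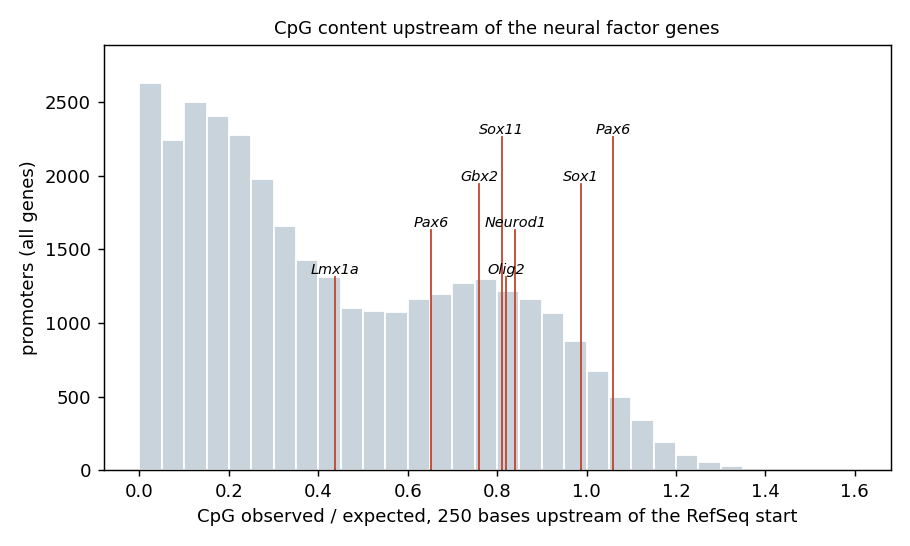
Ratio of observed to expected CG (x axis, no unit) in the 250 bases before each RefSeq start, as a histogram of all 32851 promoters (y axis, number of promoters), with a line for each window of a neural factor gene. Lmx1a, at 0.437, lies nearest to the median of 0.373, and the other windows lie between 0.652 and 1.06.

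Per kilobase of exon, the 9 genes spanned a wide range of levels in these cells. Olig2 had the highest mean over the 7 libraries, at 22.8 CPM per kb (lowest 17.3, highest 32.9), followed by Gbx2 at 18.5 CPM per kb (12.5 to 26.4), Sox11 at 10.9 CPM per kb (9.09 to 13.0) and Neurod1 at 9.34 CPM per kb (6.74 to 15.1). The ranges of these 4 neighbours overlapped from each gene to the next. Sox3 followed at 1.46 CPM per kb (1.02 to 2.04) and overlapped no other member. Sox1, Pax6 and Lmx1a had 0.186, 0.182 and 0.146 CPM per kb, with ranges that overlapped one another, and Pax3 came last at 0.0317 CPM per kb, with no count at all in 2 of the 7 libraries. For scale, Sox2, the pluripotency paralog of Sox1 and Sox3, had 192.5 CPM per kb (178.5 to 205.8), and Olig1, the neighbouring paralog of Olig2, had 52.8 CPM per kb.

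**Figure D2:**
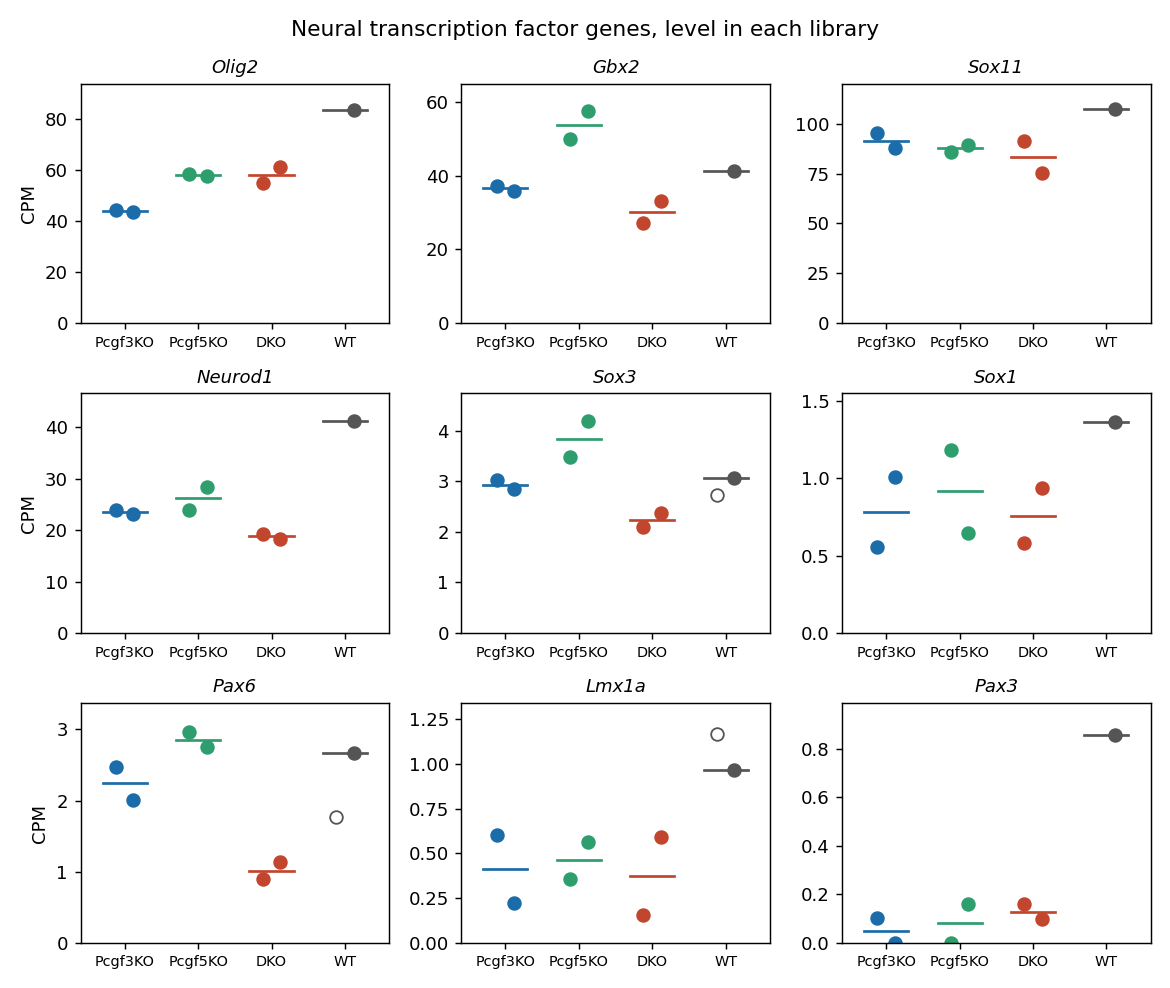
Level of each of the 9 genes in CPM (y axis, linear, starting at 0) in every library of the 4 groups (x axis). Filled points are single libraries, lines are group means (for WT, replicate 2 alone), and open points are the WT replicate 1 values of the 3 genes that table lists. Olig2 and Neurod1 lie below the WT library in all 6 knockout libraries, Gbx2 is highest in the Pcgf5KO libraries at 49.95 and 57.5 CPM, and Pax6 is lowest in the DKO libraries at 0.896 and 1.14 CPM.

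Olig2, the basic helix-loop-helix factor of motor neuron and oligodendrocyte progenitors (ENSMUSG00000039830, chromosome 16, 91225550 to 91228677, plus strand, protein coding), was lower in every knockout. It had 44.3 and 43.7 CPM in Pcgf3KO, 58.4 and 57.7 CPM in Pcgf5KO, 54.8 and 60.9 CPM in DKO and 83.2 CPM in WT, from 714 to 1462 counts per library. The 6 knockout libraries lay below the single WT library, and the Pcgf3KO libraries lay below those of the other knockouts. The share of all genes with all 6 below that WT library was not counted, here or for the genes that follow. Against WT, Olig2 fell by 0.92 ± 0.11 on the log2 scale in Pcgf3KO (SE, adjusted p = 0.00308), by 0.52 ± 0.11 in Pcgf5KO (adjusted p = 0.0353) and by 0.52 ± 0.11 in DKO (adjusted p = 0.0313). On the linear scale the fitted levels were 0.528, 0.698 and 0.695 of WT. In bulk samples like these, fewer cells transcribing a gene and less RNA of it per cell cannot be told apart.

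The change of Olig2 in DKO was smaller than that in both single knockouts added together. Their sum was -1.44 on the log2 scale against -0.52 in DKO, and the difference of 0.92 ± 0.14 passed the test of the interaction (adjusted p = 0.00997). DKO against Pcgf3KO gave +0.40 ± 0.09 for Olig2, which missed the threshold (adjusted p = 0.0646), with both DKO libraries above both Pcgf3KO libraries. DKO against Pcgf5KO gave 0.00 ± 0.09 (adjusted p = 0.981), and those libraries overlapped. Olig2's paralog Olig1, another oligodendrocyte lineage factor, named here after its values were seen, had 102.1 and 92.7 CPM in Pcgf3KO, 112.7 and 121.5 CPM in Pcgf5KO, 106.0 and 137.3 CPM in DKO and 126.8 CPM in WT, and passed the test in none of the 3 comparisons with WT (adjusted p = 0.232, 0.715 and 0.856). Whether the changes of Olig2 and Olig1 differ was not tested.

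Neurod1, a basic helix-loop-helix factor of differentiating neurons and endocrine cells (ENSMUSG00000034701, chromosome 2, 79452521 to 79456751, minus strand, protein coding), was also lower in every knockout. It had 23.9 and 23.1 CPM in Pcgf3KO, 24.0 and 28.5 CPM in Pcgf5KO, 19.3 and 18.4 CPM in DKO and 41.2 CPM in WT, from 352 to 724 counts. Every knockout library was below the WT library, and the DKO libraries were the lowest of all. Neurod1 fell by 0.81 ± 0.13 on the log2 scale in Pcgf3KO (SE, adjusted p = 0.0165), by 0.66 ± 0.14 in Pcgf5KO (adjusted p = 0.0361) and by 1.13 ± 0.13 in DKO (adjusted p = 0.00288). The DKO level was 0.457 of WT. DKO against Pcgf3KO was -0.32 (adjusted p = 0.199) and DKO against Pcgf5KO was -0.47 (adjusted p = 0.0669), neither past the threshold, and the interaction of +0.34 did not pass either (adjusted p = 0.290). The exons of Neurod1 share 201 bp with Cerkl on the same strand (7.37% of its exon length) and 154 bp with Gm26755 on the other strand, genes with at most 48 counts and 5 counts in a library.

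Sox11, a SoxC factor of newly formed neurons (ENSMUSG00000063632, chromosome 12, 27334264 to 27342574, minus strand, protein coding), had the most counts of the 9, from 1104 to 1893 per library. It had 95.4 and 87.7 CPM in Pcgf3KO, 86.1 and 89.3 CPM in Pcgf5KO, 91.6 and 75.5 CPM in DKO and 107.6 CPM in WT. All 6 knockout libraries were below the WT library, and the knockout groups overlapped. The differences from WT were -0.23 in Pcgf3KO, -0.30 in Pcgf5KO and -0.37 in DKO on the log2 scale, none of which passed (adjusted p = 0.412, 0.236 and 0.160).

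Gbx2, a homeobox factor of the anterior hindbrain that ES cells also transcribe (ENSMUSG00000034486, chromosome 1, 89927956 to 89931179, minus strand, protein coding), was higher in Pcgf5KO than in the other groups. It had 37.2 and 35.9 CPM in Pcgf3KO, 49.95 and 57.5 CPM in Pcgf5KO, 27.1 and 33.1 CPM in DKO and 41.3 CPM in WT, from 515 to 844 counts. The Pcgf5KO libraries were above the WT library, and the Pcgf3KO and DKO libraries were below it, without overlap between the 4 groups. Such separation is common here: DKO did not overlap Pcgf3KO in 46.5% of all genes tested, nor Pcgf5KO in 55%. None of the differences from WT passed the test: -0.18 in Pcgf3KO (adjusted p = 0.626), +0.38 in Pcgf5KO (adjusted p = 0.206) and -0.46 in DKO (adjusted p = 0.137). DKO against Pcgf5KO did pass, with a fall of 0.83 ± 0.12 on the log2 scale (SE, adjusted p = 0.0176), a level 0.562 of that in Pcgf5KO. That comparison does not use the WT library. The interaction for Gbx2 was -0.66 (adjusted p = 0.0894). Of its exon length, 946 bp (43.5%) overlap the antisense gene D130058E05Rik, which had 31 to 52 counts per library. The library kit named in the labels' protocols does not mark strand, so reads of Gbx2 and of its antisense gene cannot be told apart where they overlap.

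Pax6, the paired-box factor of radial glia, eye and spinal cord progenitors (ENSMUSG00000027168, chromosome 2, 105668900 to 105697364, plus strand, protein coding), was lowest in DKO. It had 49 and 36 counts in Pcgf3KO, 50 and 34 in Pcgf5KO, 17 and 23 in DKO and 35 and 47 in WT. As CPM these were 2.47 and 2.01 in Pcgf3KO, 2.96 and 2.75 in Pcgf5KO, 0.896 and 1.14 in DKO and 2.68 in WT replicate 2, while WT replicate 1, scaled from its listed genes, gave 1.78. Both DKO libraries lay below the 6 others, and the WT libraries overlapped the Pcgf3KO libraries. Against Pcgf5KO, Pax6 fell by 1.48 ± 0.30 on the log2 scale in DKO (SE, adjusted p = 0.0419), a level 0.357 of that in Pcgf5KO. Against WT the difference in DKO was -1.39 ± 0.35 and missed the threshold (adjusted p = 0.0675), and against Pcgf3KO it was -1.14 (adjusted p = 0.0963). With both WT libraries, in a fit of the 2702 genes that all 8 tables list and that passed the filter, DKO against WT was -1.11 (adjusted p = 0.0597) and DKO against Pcgf5KO was -1.47 ± 0.33 (adjusted p = 0.0472), where 1.15% of those genes fell. In the single knockouts the differences from WT were -0.25 and +0.10 with 7 libraries (adjusted p = 0.775 and 0.901).

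Sox3 and Sox1, the SoxB1 factors that mark neural progenitors, showed no change that passed the test. Sox3 (ENSMUSG00000045179, chromosome X, 60891366 to 60893430, minus strand, protein coding) had 60 and 51 counts in Pcgf3KO, 59 and 52 in Pcgf5KO, 40 and 48 in DKO and 54 and 54 in WT. Its CPM was 3.02 and 2.85 in Pcgf3KO, 3.49 and 4.21 in Pcgf5KO, 2.11 and 2.37 in DKO, and 2.74 and 3.08 in WT. The DKO libraries were the lowest and the Pcgf5KO libraries the highest, and DKO against Pcgf5KO gave -0.77, which missed the threshold (adjusted p = 0.0939), as did -0.45 against WT (adjusted p = 0.420). Sox1 (ENSMUSG00000096014, chromosome 8, 12395295 to 12400126, plus strand, protein coding) had 11 and 18 counts in Pcgf3KO, 20 and 8 in Pcgf5KO, 11 and 19 in DKO and 24 in WT. Its knockout groups overlapped, and the WT library was the highest. The ratio of its summed knockout counts to the WT counts, corrected for library size, was 0.562 in Pcgf3KO, 0.7 in Pcgf5KO and 0.56 in DKO, with exact 95% intervals of 0.316 to 1.01, 0.391 to 1.26 and 0.316 to 1. These intervals cover counting error only, and at this depth a difference was not detectable in the fitted test (adjusted p = 0.547, 0.652 and 0.450).

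Lmx1a, a LIM homeobox factor of the roof plate and midbrain dopaminergic progenitors (ENSMUSG00000026686, chromosome 1, 167689237 to 167848741, plus strand, protein coding), was at the edge of detection. It had 12 and 4 counts in Pcgf3KO, 6 and 7 in Pcgf5KO, 3 and 12 in DKO and 23 and 17 in WT, so all 6 knockout libraries were below both WT libraries. As CPM the knockout libraries ranged from 0.158 to 0.605, against 1.17 and 0.968 in WT. The ratio of its counts to those of WT replicate 2 was 0.438 in Pcgf3KO (0.207 to 0.922), 0.459 in Pcgf5KO (0.205 to 1) and 0.395 in DKO (0.184 to 0.841). The fitted test passed in no knockout, with 7 libraries (adjusted p = 0.511, 0.482 and 0.377) or with 8 (0.221, 0.224 and 0.144).

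Pax3, the paired-box factor of the dorsal neural tube and neural crest (ENSMUSG00000004872, chromosome 1, 78101267 to 78197134, minus strand, protein coding), had at most 3 counts in each knockout library. It had 2 and 0 counts in Pcgf3KO, 0 and 2 in Pcgf5KO, 3 and 2 in DKO and 15 in WT replicate 2, and it passed the filter on low counts only through that WT library. A gene kept for its level in 1 group lies lower in the others by that choice, and no second WT value of Pax3 was analysed here, so its difference from WT is given as counts alone.

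Across the set, 2 of the 9 genes, Olig2 and Neurod1, fell in Pcgf3KO, where 1.28% of all genes tested fell, and 7 did not pass. The same 2 genes fell in Pcgf5KO, where 1.68% of all genes fell, and in DKO, where 1.89% fell. The 3 comparisons share the 1 WT library, so they are not independent of each other. Without Pax3, the median of the other 8 log2 differences was -0.53 in Pcgf3KO, -0.41 in Pcgf5KO and -0.68 in DKO, beside medians of 0.00, 0.01 and 0.01 over all genes, and 8, 5 and 8 of those 8 genes were below 0. No member rose in any of these comparisons, which 1.08%, 1.31% and 1.33% of all genes did. All 9 passed the filter on low counts, Pax3 for the reason given above.

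**Figure D3:**
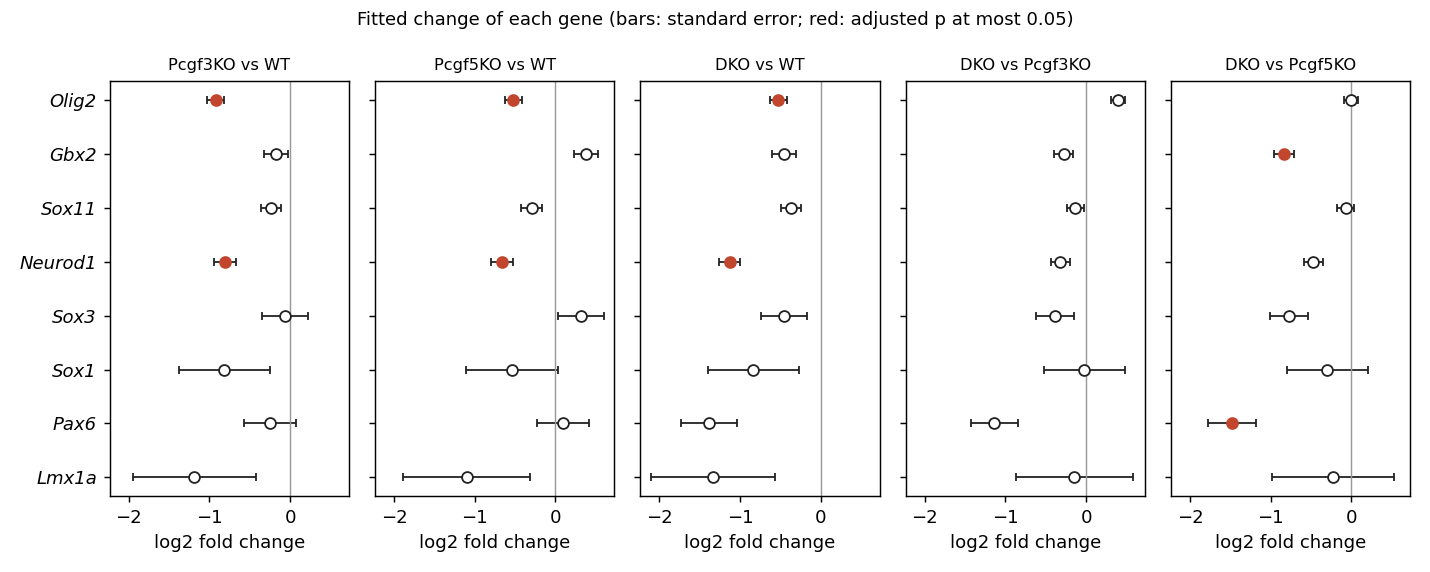
Fitted log2 fold change (x axis) with its standard error for 8 of the 9 genes (rows, ordered by level per kb) in 5 comparisons (panels), with red points where the adjusted p was at most 0.05. Pax3, with 0 to 3 counts in each knockout library, is not drawn. Olig2 and Neurod1 are red in the 3 comparisons with WT, and Gbx2 and Pax6 in DKO against Pcgf5KO.

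Setting DKO against each single knockout avoids the WT library. Against Pcgf3KO no member was called, beside 1.74% of all genes. There 4 of the 9 had an unadjusted p under 0.05 (Olig2, Pax6, Neurod1 and Gbx2). The share of all genes at that looser threshold was not counted, so the 1.74% is no measure for those 4. DESeq2 also called 0. Against Pcgf5KO, Gbx2 and Pax6 fell, beside 1.28% of all genes, and the median of the 8 genes without Pax3 was -0.39. In 5 of the 9 genes the DKO libraries did not overlap those of Pcgf3KO, against 46.5% of all genes tested, and in 4 of the 9 they did not overlap those of Pcgf5KO, against 55% of all genes, so the members' shares were near those of all genes. The interaction, the change in DKO less the sum of both single changes, does use the WT library. It was called for 1 member, Olig2, where 1.77% of all genes were called in that direction. Pax6 and Gbx2 lay on the other side, with -1.23 (adjusted p = 0.141) and -0.66 (adjusted p = 0.0894), and did not pass.

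**Figure D4:**
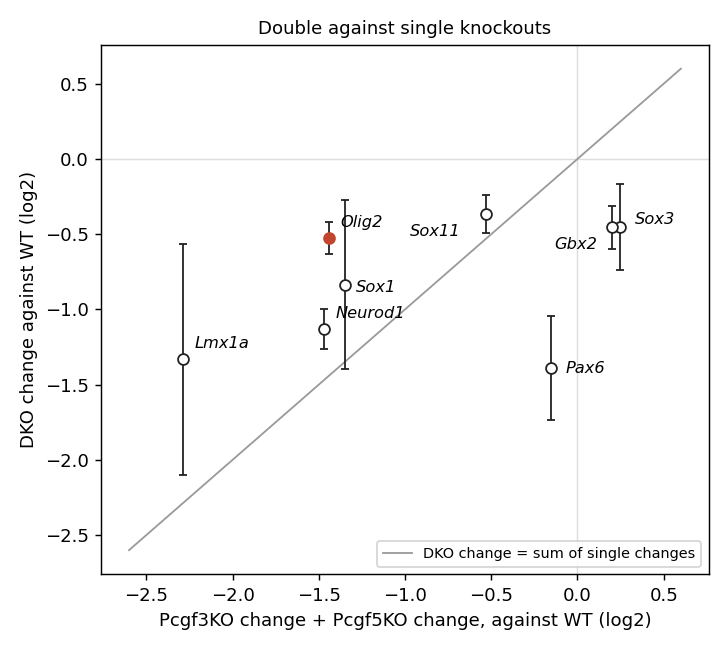
Log2 change in DKO against WT with its standard error (y axis) against the sum of the Pcgf3KO and Pcgf5KO changes (x axis) for 8 genes, without Pax3, which had 2 to 5 counts per knockout group. On the diagonal the change in DKO would equal the sum. Olig2, in red, was the member called for the interaction, at -0.52 in DKO against a sum of -1.44, and Pax6 lies below the line at -1.39 against -0.16.

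How firmly these calls stand depends on single libraries. With 7 libraries and 4 groups there are 3 residual degrees of freedom, and leaving out either Pcgf3KO library took the calls of Olig2 and Neurod1 in Pcgf3KO away (0 called, adjusted p up to 0.065 and 0.174). The folds hardly moved in those fits, at -0.93 and -0.91 for Olig2 and -0.83 and -0.78 for Neurod1, while the genes called over the whole table numbered 46 and 49, against 370 with all 7 libraries. In Pcgf5KO both calls were lost without any 1 of the Pcgf3KO or Pcgf5KO libraries (0 called, up to 0.293 and 0.319), while the call of Neurod1 in DKO was kept under all 13 alternatives run (adjusted p at most 0.0152). Olig2 in DKO was lost when only DKO and WT were fitted and without any 1 of the Pcgf3KO or Pcgf5KO libraries (up to 0.339). Gbx2 and Pax6 in DKO against Pcgf5KO were lost under the same settings (up to 0.315 and 0.358), and DESeq2 gave no adjusted p for Pax6 there (-1.49, unadjusted p = 0.00232). The call of Olig2 for the interaction was lost without any 1 of the Pcgf3KO or Pcgf5KO libraries (up to 0.0968).

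Leaving out 1 of the DKO libraries, which lay furthest apart, moved the counts the other way, for the members and for all genes alike. These counts include Pax3, which passed the filter only through WT, in both single knockouts in either fit. They also include it in DKO against WT without DKO replicate 1 and for the interaction without DKO replicate 2. Without DKO replicate 1 there were 4 members called in Pcgf3KO, 5 in Pcgf5KO and 6 in DKO against WT, in fits that called 20.6%, 26.8% and 16.2% of all genes. Without DKO replicate 2 the members' counts were the same, beside 20.2%, 26.4% and 34.5% of all genes. DKO against Pcgf3KO had 3 and 4 members called in those 2 fits, beside 12.6% and 35.8% of all genes, and DKO against Pcgf5KO had 4 and 4, beside 16% and 42.3%. The interaction was called for 2 and 6 members, beside 24.1% and 36.7% of all genes. The fold changes called with 7 libraries kept their sign, while some that were not called turned. Olig2 in DKO was -0.45 without DKO replicate 1 and -0.60 without DKO replicate 2, and Neurod1 was -1.17 and -1.09. For DKO against Pcgf5KO, Gbx2 was -0.69 and -0.97, and Pax6 was -1.33 and -1.67. Pax6, Gbx2 and Sox11 were among those then called as lower in DKO than in WT, with either DKO library left out. Gbx2 was among those then called in Pcgf5KO, as higher than WT, at +0.37 in both fits. The other members called against WT were lower. No direction of a called value turned in these fits.

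The closest paralogs of the 9 genes, which share their DNA-binding families, showed few changes. Of 17 paralogs, 8 passed the filter on low counts and the other 9 had at most 8 counts in any library, with Neurod2, Neurod6 and Pax4 at 0 in all 7. None rose or fell in Pcgf3KO or Pcgf5KO. In DKO, Sox4, a SoxC factor close to Sox11, fell by 0.74 ± 0.15 on the log2 scale (adjusted p = 0.0337), with 29.3 and 27.4 CPM in DKO against 43.0 and 47.2 CPM in WT. The median log2 difference of the 8 was 0.01 in Pcgf3KO, -0.13 in Pcgf5KO and 0.12 in DKO. Sox12, the other SoxC gene, had 41.1 and 50.01 CPM in DKO and 34.9 and 35.9 CPM in WT and did not pass (adjusted p = 0.210). Pax8 did not pass in Pcgf5KO either, with 0.0592 and 0.162 CPM against 0.101 and 0.740 CPM in WT (adjusted p = 0.179). Like Pax3, Pax8 passed the filter on low counts only through WT replicate 2, so it lies lower in the knockouts by that choice. The medians above include Pax8. Without either DKO library the counts were 2 lower and 2 higher in Pcgf3KO, and 2 lower and 1 higher in Pcgf5KO, in the fits whose larger shares over all genes are given above.

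Other factors of neural patterning were higher in the knockouts where they passed the test. Of 45 such genes on the list, 25 passed the filter. None rose or fell in Pcgf3KO, 2 rose in Pcgf5KO and 4 rose in DKO, and none fell in either, beside 1.31% and 1.33% of all genes that rose in those 2 comparisons. Zic2, a zinc finger factor of the neural plate, had 57.0 and 46.4 CPM in DKO, against 19.3 CPM in WT (log2 fold change 1.42 ± 0.15, adjusted p = 0.00201). Otx2, the forebrain and midbrain homeobox factor that acts against Gbx2 at the midbrain-hindbrain boundary, had 13.8 and 9.84 CPM in DKO, against 1.82 CPM in WT (2.69 ± 0.30, adjusted p = 0.00229). Foxd3, a factor of ES cells and neural crest, had 30.5 and 31.0 CPM in Pcgf5KO, against 15.3 CPM in WT (1.01, adjusted p = 0.00983). Zic5, named after its values were seen, was the other one that rose in DKO, at 86.1 and 57.0 CPM against 26.3 CPM in WT (1.45 ± 0.22, adjusted p = 0.00900). In the annotation, Otx2 overlaps the antisense gene Otx2os1, as Sox4, Olig1 and Map2 do Gm26735, Gm15966 and Gm10558, and reads of such pairs cannot be told apart. The median over the 25 genes was nonetheless below 0, at -0.45 in Pcgf3KO, -0.36 in Pcgf5KO and -0.36 in DKO. Without either DKO library more of these genes were called in the single knockouts, some higher and some lower. Those are the fits whose larger shares over all genes are given above.

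Some genes on a list of neuronal and glial markers fell against the same WT library as Olig2 and Neurod1. The list of 14 also holds Nes, of neural progenitors, and Cdh2 and Ncam1, which are not specific to neurons and glia. Of the 14, 13 were tested. Of these, 3 fell in Pcgf3KO (Map2, Nes and Cdh2), 2 in Pcgf5KO (Map2 and Cdh2) and 5 in DKO. Over all genes, 1.28%, 1.68% and 1.89% fell. None rose. Dcx, Elavl3, Elavl4, Rbfox3, Syt1, Snap25, Ncam1 and the glial marker Gfap passed in no knockout with 7 libraries. Fabp7 was below the filter, with at most 4 counts. Map2, a neuronal microtubule protein, had 20.4 and 19.1 CPM in Pcgf3KO, 24.4 and 24.3 CPM in Pcgf5KO, 24.2 and 19.9 CPM in DKO and 38.3 CPM in WT. Nes, the intermediate filament of neural progenitors, had 23.2 and 22.6 CPM in Pcgf3KO, 27.7 and 28.1 CPM in Pcgf5KO, 26.6 and 27.4 CPM in DKO and 38.3 CPM in WT, and fell in Pcgf3KO and DKO (adjusted p = 0.0127 and 0.0497). Cdh2, N-cadherin, fell in all 3, with 12.6 and 11.3 CPM in DKO against 28.9 CPM in WT (-1.28 ± 0.15, adjusted p = 0.00304). Tubb3 and Stmn2, named after their values were seen, completed the 5 in DKO (adjusted p = 0.0214 and 0.0368). The medians over the 13 were -0.45, -0.45 and -0.44. Without either DKO library more of the 13 fell in each knockout, in the fits whose larger shares over all genes are given above.

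**Figure D5:**
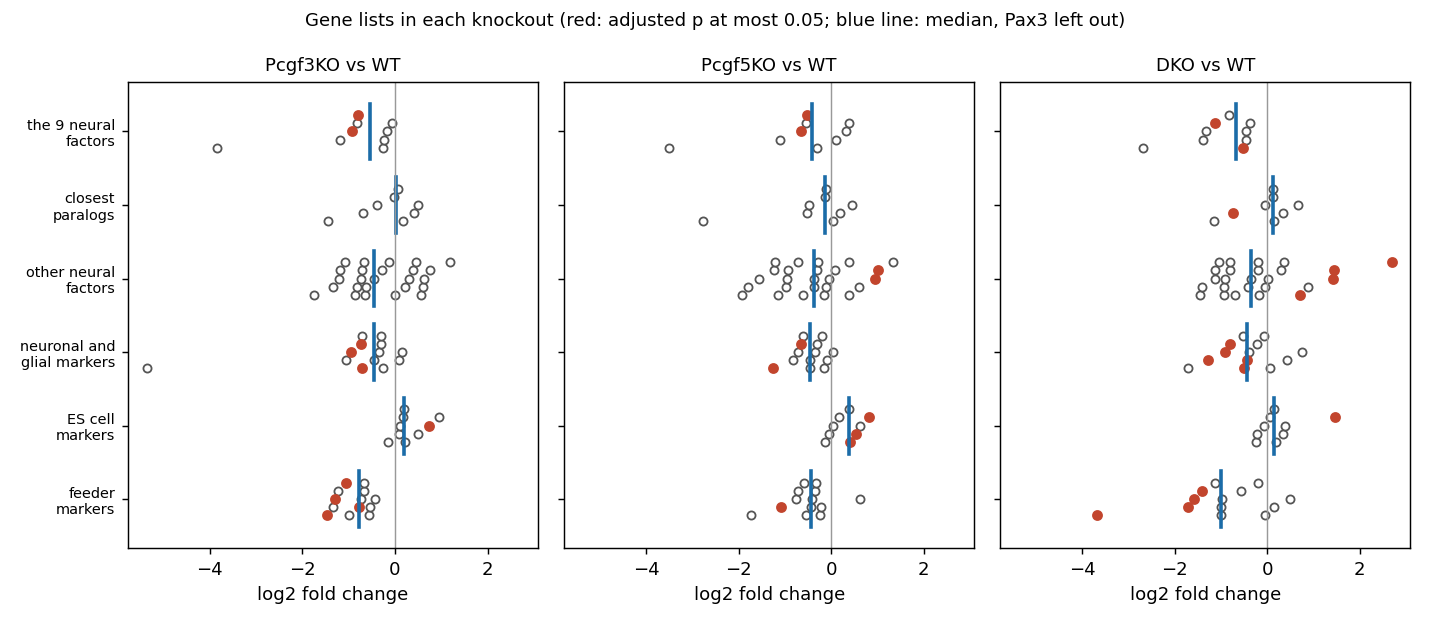
Log2 fold change (x axis) of every tested gene of 6 lists (rows) in each knockout against WT (panels), with red points at an adjusted p of at most 0.05 and a blue line at each list's median, for the neural factors without Pax3. The medians of the neural factors and of the feeder markers lie below 0 in the 3 panels, those of the ES cell markers above 0, and the red points among the other neural factors lie above 0.

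Markers of the cells in the cultures were read in the same libraries. All 9 ES cell markers were detected in every complete library, at a summed level of 3188 and 3303 CPM in Pcgf3KO, 3459 and 3483 CPM in Pcgf5KO, 2886 and 3079 CPM in DKO and 2770 CPM in WT. Dppa5a rose in Pcgf3KO and Pcgf5KO (adjusted p = 0.0106 and 0.00685), Klf4 rose in DKO (adjusted p = 0.0114), and Pou5f1 and Tdgf1 rose in Pcgf5KO, none of the 9 falling against WT. Over all genes 1.08% rose in Pcgf3KO, 1.31% in Pcgf5KO and 1.33% in DKO. Tdgf1 had 865.0 and 849.0 CPM in Pcgf5KO, and its WT libraries were far apart, at 804.1 and 594.7 CPM. Of 15 feeder fibroblast markers 13 were tested, and 4 fell in Pcgf3KO, 1 in Pcgf5KO and 4 in DKO. Over all genes 1.28%, 1.68% and 1.89% fell there. The medians of the feeder markers were -0.78, -0.44 and -1.002. Their summed level was 112.6 and 124.4 CPM in Pcgf3KO, 143.8 and 147.0 CPM in Pcgf5KO, 120.6 and 146.6 CPM in DKO and 198.6 CPM in WT. None of the 15 was at 0 in all libraries, and Postn and Prrx1 had at most 6 counts in any. The summed level was thus lower in the 6 knockout libraries than in the WT library, as were Olig2 and Neurod1, while 9, 12 and 9 of the 13 markers did not pass. The part of feeder RNA in those differences was not tested.

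Single feeder markers did not all follow the same course. Acta2, smooth muscle actin, had 5.69 and 4.92 CPM in Pcgf3KO, 7.87 and 8.73 CPM in Pcgf5KO, 0.685 and 1.04 CPM in DKO and 11.1 CPM in WT, and Tagln had 17.0 and 17.3 CPM in DKO against 51.2 CPM in WT. Both fell in DKO against WT and against each single knockout, and Pax6 was also lowest in those 2 libraries. Other feeder markers went the other way there: Col6a1, Col5a1, Mmp2 and Thy1, named after their values were seen, rose in DKO against Pcgf3KO, and Col6a1 rose against Pcgf5KO. Col1a1, the main fibroblast collagen, had 5.32 and 6.92 CPM in DKO and 16.2 CPM in WT, with 5.19 and 6.60 CPM in Pcgf3KO. Among 11 markers of mesoderm, endoderm and trophectoderm, 9 were tested, and Hand1 fell in Pcgf3KO and Pcgf5KO (adjusted p = 0.0378 and 0.0196) and Cdx2 fell in DKO (adjusted p = 0.0256). Hand1 had 16.0 and 46.4 CPM in the 2 DKO libraries and 45.8 CPM in WT, so the DKO libraries disagreed in it. Sox17, of the endoderm, had 0.105 and 0.0494 CPM in DKO against 0.710 and 0.740 CPM in WT and did not pass (adjusted p = 0.0885). Among 14 Pcgf and core Polycomb genes, Suz12, a subunit of the other Polycomb complex, rose in DKO (0.76, adjusted p = 0.0131), with 445.9 and 363.8 CPM against 233.2 and 238.8 CPM in WT.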

How the data were processed

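The authors deposited 1 table of raw read counts per Ensembl gene and library, per the file headers and values. The submitters' processing notes name mm10, TopHat2 2.0.12, Cufflinks 2.2.1 and HTSeq 0.6.0; the sources used here give neither the annotation release nor the strand setting. Poly-A RNA was made into libraries with a kit that does not mark strand, per the labels' protocols. Gene positions are those of the deposited tables, and exon lengths are from GENCODE M21. Ensembl IDs were matched to symbols in a table of gene names (46488 of 47069 had one).

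The 7 complete libraries were fitted together in edgeR 4.0.16 (R 4.3.3) with TMM scaling, filterByExpr (minimum count 10, minimum total 15) and 3 residual degrees of freedom, which left 15669 genes. The table of WT replicate 1 stops early, so it entered only an alternative of 8 libraries over the 8093 genes it lists. Quasi-likelihood p-values were adjusted by Benjamini-Hochberg. Count ratios have exact conditional binomial 95% intervals. Alternatives were DESeq2 1.42.0, RLE scaling, library totals, other filters, only the 2 groups compared, a replicate block and leaving out each library.

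The members, lists and alternatives were chosen with earlier results of these data known, and the list counts without a DKO library were added after seeing these data. Named are all 9 members and, from each other list, the 3 genes with the smallest p in a comparison of a knockout with WT. Genes beyond that rule (Sox2, Olig1, Zic5, Tubb3, Stmn2, Pou5f1, Col6a1, Col5a1, Mmp2, Thy1, and Neurod2, Neurod6 and Pax4 at 0) were named after their values were seen. So were the neuronal and glial markers that did not pass. For each member, the 2 genes with the highest Pearson correlation over the 7 libraries were named among genes whose log2 CPM averaged 1 or more. Same-numbered libraries were not treated as pairs.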

Additional observations from a re-analysis of the deposited data

Results flagged for a closer look

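The Olig2 change in DKO differed from the sum of its changes in Pcgf3KO and Pcgf5KO by 0.92 ± 0.14 on the log2 scale (edgeR's quasi-likelihood test of the interaction, Benjamini-Hochberg adjusted p = 0.00997). It was picked out because the effect of losing 1 gene differed, by a test of that difference, with whether the other gene was present. The interaction uses the 1 WT library. In the comparisons without WT, the same kind of test called Olig2 neither in DKO against Pcgf3KO nor in DKO against Pcgf5KO. Those gave +0.40 (adjusted p = 0.0646) and -0.004 (adjusted p = 0.981). DKO libraries had 54.8 and 60.9 CPM, Pcgf3KO libraries 44.3 and 43.7 CPM, Pcgf5KO libraries 58.4 and 57.7 CPM, and the 1 WT library 83.2 CPM. The value was 0.99 without DKO replicate 1 and 0.84 without DKO replicate 2, both with the call kept, and the call was lost without any 1 of the Pcgf3KO or Pcgf5KO libraries (adjusted p = 0.0802 to 0.0968).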

How the results depend on the processing

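Members called numbered 2 in Pcgf3KO, 2 in Pcgf5KO, 2 in DKO against WT, 0 in DKO against Pcgf3KO, 2 in DKO against Pcgf5KO and 1 for the interaction. Without the filter on low counts they were 3 in Pcgf3KO (Olig2, Neurod1 and Pax3, the last at adjusted p = 0.0439), 5 in DKO against WT, 2 in DKO against Pcgf3KO, 4 in DKO against Pcgf5KO and 2 for the interaction. The shares of all genes called in those 5 comparisons were 4.34%, 5.79%, 5.32%, 9.07% and 7.47%. With only the 2 groups compared, the members called were 4, 5 and 1 against WT and 0 in DKO against Pcgf5KO. Those fits called 20.1%, 32.7% and 2.12% of all genes against WT and 0.0478% in DKO against Pcgf5KO. With 8 libraries, where only Pax6, Sox3 and Lmx1a are listed, the members called were 0, 0 and 0 against WT, 1 in DKO against Pcgf5KO and 0 for the interaction. DESeq2 called 1 in DKO against Pcgf5KO, where it gave Pax6 no adjusted p, and library totals 1 in DKO against Pcgf3KO. Leaving out 1 library, with a lone library left assumed to vary like the other groups, gave 0 to 4 in Pcgf3KO, 0 to 5 in Pcgf5KO, 1 to 6 in DKO against WT, 0 to 4 in DKO against Pcgf3KO, 0 to 4 in DKO against Pcgf5KO and 0 to 6 for the interaction. WT replicate 2 cannot be left out of a comparison with WT. Where the count rose without a DKO library the cause was not tested. Pax3, which passed the filter only through WT, is in the larger counts of both single knockouts. That holds with only the 2 groups compared and with 1 DKO library left out. In Pcgf5KO those counts also include Gbx2, as higher than WT.

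A replicate block gave 1 in DKO against Pcgf3KO, 3 in DKO against Pcgf5KO and 2 for the interaction. The labels do not say that equal numbers share anything, and the correlation of same-numbered deviations ran from -0.062 to 0.197 over the 6 pairs of groups, not over 0.1 in every one, so equal numbers were not taken as pairs. Over all genes the block called 499 against 272, 1532 against 357 and 1305 against 594 in those 3 comparisons.

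Over all genes, calls without the filter were 1105, 1222 and 1474 against WT (370, 468 and 505 with it), 1355 against Pcgf3KO (272), 2312 against Pcgf5KO (357) and 1904 for the interaction (594). With only the 2 groups compared they were 3030, 4882, 329, 35 and 7. DESeq2 called 804 in DKO against Pcgf5KO. Library totals moved the share of higher calls to 53.8% in DKO against Pcgf3KO (42.3% with TMM), 68.1% against Pcgf5KO (43.7%) and 61.2% for the interaction (46.8%).

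Of the fitted values of single members under the alternatives, 588 kept direction and side, 53 newly passed, 31 no longer passed and 21 turned sign, none of the 21 called. With 8 libraries Pax6 and Sox3 in Pcgf3KO were 0.022 and 0.0194. With library totals Sox1 in DKO against Pcgf3KO was 0.0271, and in DKO against Pcgf5KO Sox11 was 0.0096 and Olig2 0.0723. Olig2 there was also 0.0093 with CPM of at least 1 in 2 libraries and 0.0073 with only the 2 groups compared. With 1 library left out, DKO against Pcgf3KO ranged from -0.41 to 0.4548 for Sox1, from -0.28 to 1e-04 for Sox11 and from -1.38 to 0.74 for Lmx1a. DKO against Pcgf5KO then ranged from -0.32 to 4.32 for Pax3, from -0.70 to 0.24 for Sox1, from -0.21 to 0.0683 for Sox11, from -0.08 to 0.0694 for Olig2 and from -1.45 to 0.41 for Lmx1a. The interaction of Lmx1a ranged from -0.27 to 1.84. Depth limits Pax3, Lmx1a and Sox1, with at most 24 counts in a complete library.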

Other observations

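The genes whose log2 CPM followed a member most closely over the 7 libraries were drawn from 12288 candidates, so high correlations arise among so many genes with few libraries, and no p is given. For Olig2 they were Trim36 and Shisa5 (Pearson r = 0.992 both), for Neurod1 Acta1 and Fkbp10 (0.994 and 0.985), for Gbx2 Tspan15 and Vcpkmt (0.983 and 0.982), and for Sox3 Vcpkmt and Sec11a (0.994 and 0.988). Sox11 was followed by Gm42547 and Map3k12 (0.973 and 0.967), and Pax6 by Maoa and Acta2 (0.986 and 0.980), of which Acta2 is on the feeder list. Sox1, Lmx1a and Pax3, with few counts, were followed by Snx12 and Tmem206, by Pttg1 and Lsm10, and by Rgs16 and Bahd1. Trim36 had 11.5 and 14.1 CPM in DKO, 9.52 and 9.40 CPM in Pcgf3KO, 12.8 and 13.1 CPM in Pcgf5KO and 18.5 CPM in WT.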
